A study of Mus musculus with 28 samples.

Results

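The dorsal and ventral parts of the young mouse brain were compared in the horizontal series of a Transcriptome Tomography data set, in which serial sections taken along 1 axis of a frozen brain are pooled into fractions and the RNA of every fraction is measured. The horizontal series held 6 of the 28 arrays. Fractions 1, 2 and 3 formed the side taken as dorsal (3 samples), and fractions 4, 5 and 6 the side taken as ventral (3 samples). All 6 fractions came from 1 male C57BL/6J mouse aged 3 weeks, for which the labels name no treatment, and each fraction was hybridised to 1 array. The remaining arrays came from another 2 brains, cut into 12 coronal and 10 sagittal fractions. The 3 fractions of a side are therefore different positions in the same brain and not replicates, so that every p-value below sets the difference between sides against the spread between positions, and says nothing about other mice. In pooled tissue of this kind, fewer cells of a type and less RNA per cell cannot be told apart.

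The horizontal plane cuts the brain into layers from top to bottom. The upper layers hold most of the cerebral cortex, whose excitatory neurons carry pallial transcription factors, together with the upper cerebellum and the pineal gland. The lower layers hold the hypothalamus, with its peptide-secreting neurons, the basal forebrain with its cholinergic neurons, and the ventral brainstem, where monoamine neurons lie and where the Hox genes that pattern the hindbrain remain active. A boundary drawn between the third and the fourth fraction passes through structures that reach across it, such as the striatum, the thalamus and the cerebellum.

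Levels are given on a log2 scale, with the 75th percentile of each array set to 0 after background subtraction, so that 0 is the signal of a probe at that percentile and a difference of 1 is a doubling. A probe is called well above background where the scanner software marked it so. The 75th percentile lay between 233 and 458 signal units in the 6 fractions, and between 29014 and 30909 of 55681 probes were well above background. Over probes printed at least 5 times, the median SD of repeated spots was 0.06 to 0.074 log2. Dim probes were not equally dim in every fraction. The median level of 16194 probes named by a genomic interval was -4.76 in fraction 1 and -4.36 in fraction 6, but -5.66, -5.73 and -6.01 in fractions 2, 3 and 4, and -5.54 in fraction 5. For that reason only probes well above background on all 3 arrays of at least 1 side were tested, and each gene was also read in fractions 2 and 3 against fraction 4, where the dim probes were lowest. This left 27227 probes, of which 24827 were well above background on all 6 arrays, 1534 passed only through fractions 1-3 and 866 only through fractions 4-6.

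The labels give the fraction numbers but not which end of the brain the numbering starts from, so the sides were checked against the genes of known structures. Oxt, which encodes the hypothalamic hormone oxytocin, was well above background in all 6 fractions. Its level was -0.54, -2.29 and -2.48 in fractions 1, 2 and 3, and -1.62, 4.74 and 5.04 in fractions 4, 5 and 6. Fractions 5 and 6 stood far above the rest, whereas fraction 4 lay among the upper fractions and below fraction 1, so that the groups overlapped. The mean of fractions 4-6 exceeded that of fractions 1-3 by 4.49 ± 1.79 log2 (SE, n = 3 positions a side), or 22.5-fold, which did not pass the test across all probes (limma, adjusted p = 0.78, range 0.14 to 1.0 over 16 alternatives). The difference was 6.66 log2 without fraction 4 and 3.33 log2 without fraction 6, so the fold depends on single fractions. An exact two-sided permutation test of this gene alone gave p = 0.20, where 3 against 3 samples cannot go below 0.10. Read in fractions 2 and 3 against 4, the difference was 0.76 log2.

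Avp, which encodes vasopressin, the sister hormone of oxytocin, is given next because its neurons share the same hypothalamic nuclei. Its level was -1.97, -4.18 and -5.23 in fractions 1 to 3, and -3.13, 1.70 and 3.95 in fractions 4 to 6. The upper end of the series was again raised in fraction 1, and the groups overlapped. Avp was well above background on 2 of the 3 upper arrays, not in fraction 3, and passed the detection rule only through fractions 4-6 (adjusted p = 0.77 by limma). The genes lie on mouse chromosome 2 on opposite strands, and the 250 bases before each start are shown from RefSeq (GRCm38.p6) since these genes carry the ventral end of the axis. Oxt spans chr2:130575919-130576168 on the plus strand, and Avp chr2:130582589-130582838 on the minus strand. In the Oxt sequence, capitals mark GGTCA, the half-site letters of nuclear receptors, searched on both strands (as TGACC on the reverse). In the Avp sequence they mark CACGTG, an E-box that reads the same on both strands.
Oxt: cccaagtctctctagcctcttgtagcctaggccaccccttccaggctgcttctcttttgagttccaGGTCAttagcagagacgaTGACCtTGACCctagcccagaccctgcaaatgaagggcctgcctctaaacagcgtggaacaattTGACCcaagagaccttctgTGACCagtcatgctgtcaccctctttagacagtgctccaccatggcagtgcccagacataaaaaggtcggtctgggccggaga
Avp: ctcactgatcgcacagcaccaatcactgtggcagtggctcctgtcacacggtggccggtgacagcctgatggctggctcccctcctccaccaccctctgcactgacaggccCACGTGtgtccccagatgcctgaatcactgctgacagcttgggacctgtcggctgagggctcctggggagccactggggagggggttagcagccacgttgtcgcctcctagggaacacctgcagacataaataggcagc
The Oxt window held 5 matches to GGTCA, 1 of them on the forward strand, and the Avp window 1 match to CACGTG. Of the 32851 windows of this length in the table, 35.2% held GGTCA at least once, 0.0426% held it 5 times or more, and 6.02% held CACGTG. A match describes the letters in the window, not a bound site.

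The other peptide genes of the hypothalamus followed several patterns, and the plot of peptide and pituitary genes shows them by fraction. Hcrt, which encodes orexin, had levels of -1.07, -2.23, -2.37, -2.61, 4.98 and 4.24 from fraction 1 to 6. Pmch, which encodes melanin-concentrating hormone, had -2.22, -4.86, -3.87, -5.21, 3.61 and 4.50, and was not tested because it was well above background on only 2 arrays of each side. Both genes of the lateral hypothalamus thus stood high in fractions 5 and 6 alone, and fraction 4 was at the level of the upper side. Agrp, a feeding peptide of the arcuate nucleus, was between -2.78 and -2.25 in fractions 1 to 5 and 4.14 in fraction 6. Pomc, the precursor of melanocortins and ACTH, was between 0.64 and 1.23 in fractions 1 to 5 and 5.66 in fraction 6.

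Other peptides differed more evenly between the sides. Cartpt, a transcript of many hypothalamic and brainstem neurons, was 1.17, 1.78 and 1.85 in fractions 1 to 3 and 2.88, 3.56 and 3.51 in fractions 4 to 6. Gal, which encodes galanin, was -0.40, -0.19 and 0.33 against 1.28, 1.75 and 2.56. Neither gene overlapped between the sides, with differences of 1.72 ± 0.28 log2 and 1.95 ± 0.37 log2 (SE, adjusted p = 0.54 and 0.55 by limma). Nts (neurotensin), Ghrh (growth hormone-releasing hormone) and Trh (thyrotropin-releasing hormone) did not overlap either, at 3.13, 2.43 and 2.23 log2. Trh was less even, at -1.70, 0.77 and 1.82 against 1.91, 1.93 and 3.73 (SE of the difference 0.96), with fractions 3 and 4 close together. The opposite order held for Npy, a peptide of cortical interneurons as well as of the arcuate nucleus, at 5.14, 4.47 and 3.92 against 3.49, 3.28 and 3.04, and for Vip, whose difference was -1.45 log2. Of 22 peptide genes 17 were tested, and their groups did not overlap for 2 genes higher in fractions 1-3 and 5 higher in fractions 4-6, beside 9.32% and 3.87% of all tested probes, with a median difference of 1.72 log2, but -0.19 in fractions 2 and 3 against 4.

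**Figure D1:**
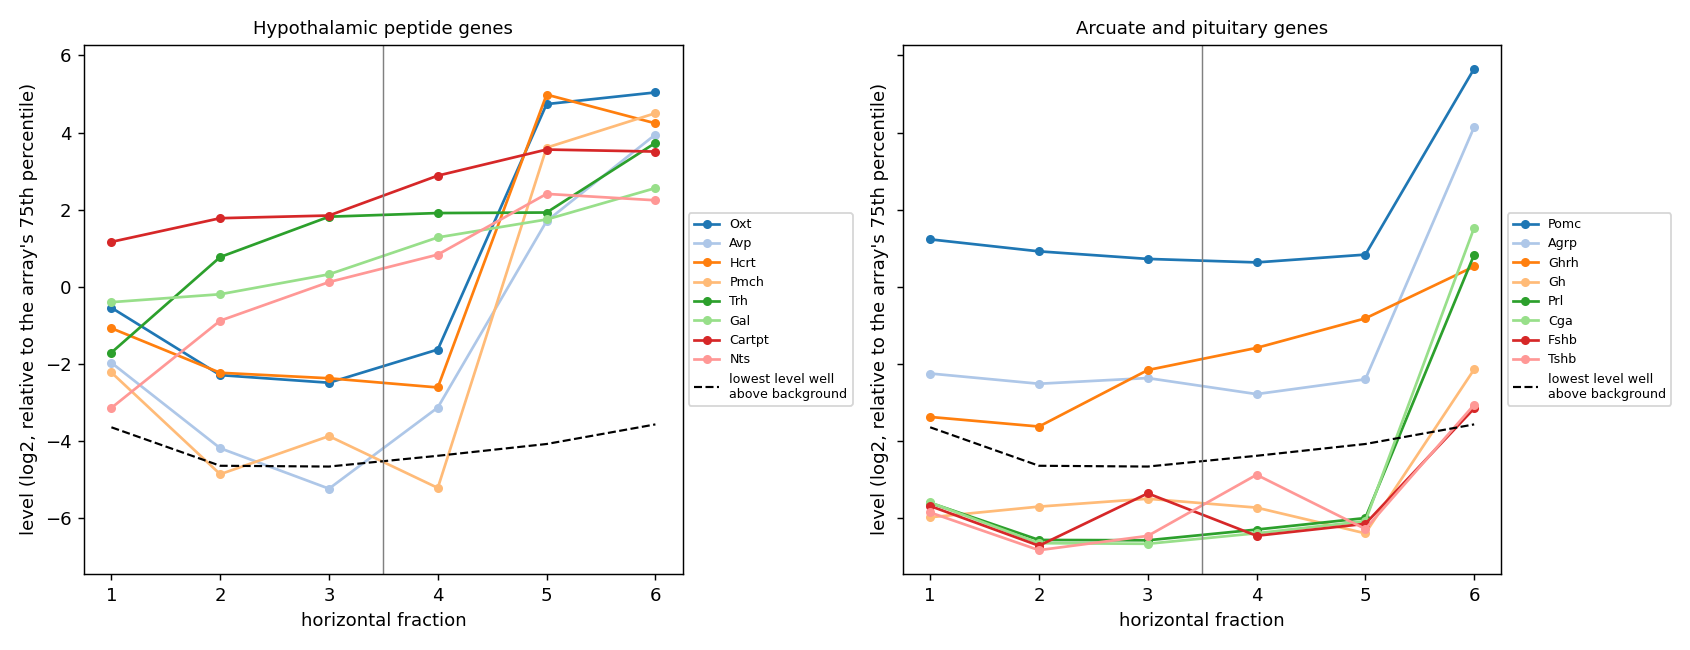
Level of hypothalamic peptide genes (left) and of arcuate and pituitary genes (right) in the 6 horizontal fractions, as log2 relative to the 75th percentile of each array; each point is 1 array, the vertical line separates the sides and the dashed line is the detection floor, the level of the dimmest probe that passed the background call there. Oxt, Hcrt and Pmch reach 4.74, 4.98 and 3.61 in fraction 5, while Pomc and Agrp reach 5.66 and 4.14 in fraction 6 only.

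Hormone genes of the anterior pituitary, a gland attached below the hypothalamus, mostly stood out in the last fraction. Prl (prolactin) was between -6.57 and -5.60 in fractions 1 to 5 and 0.83 in fraction 6, and Cga, the shared alpha subunit of the glycoprotein hormones, was between -6.66 and -5.59 and then 1.53. Gh, Fshb and Tshb were well above background in fraction 6 alone, at -2.14, -3.15 and -3.06. Only 2 of the 12 pituitary genes, Pomc and Lhb, met the detection rule of the comparison, since a gene present in 1 fraction cannot pass it. Lhb stood out less, at -2.17 in fraction 1, -1.61 in fraction 6 and between -3.09 and -2.73 in fractions 2 to 5. The 20 hypothalamic transcription factors were mostly dim. Of 11 tested, 3 passed the detection rule only through fractions 4-6, and 1 gene in each direction did not overlap. Pou3f2 was higher in fractions 1-3 (-0.75 log2), and Six3 was higher in fractions 4-6, at -1.89, -2.62 and -1.12 against 0.32, 0.53 and -0.07, a difference of 2.14 ± 0.40 log2 (SE, adjusted p = 0.55 by limma). Rax, Six6 and Fezf1 were well above background in fraction 6 alone.

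Most pituitary hormone genes, though not Lhb, thus stood out in fraction 6, and Oxt, Avp, Hcrt and Pmch in fractions 5 and 6. Gal, Cartpt and Six3 were already above the upper side in fraction 4. At the other end, 12 of the 15 cortical genes tested had a higher mean in fractions 1-3, as set out below. The labels dorsal and ventral for the sides therefore match the levels of these markers.

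Across all probes, no difference between the sides passed the test. Of the 27227 probes, 0 (0%) had an adjusted p under 0.05 in limma with Benjamini-Hochberg adjustment, the lowest adjusted p was 0.19, and 1067 probes higher in fractions 1-3 and 649 higher in fractions 4-6 had an unadjusted p under 0.05. The differences below are therefore given as values with their SE, not as calls. The median difference over all tested probes was -0.06 log2, and -0.21 when arrays were scaled by their median. The 3 levels of a side did not overlap with the 3 of the other for 2537 probes higher in fractions 1-3 (9.32%) and 1053 higher in fractions 4-6 (3.87%). These counts moved to 1258 and 339 with array median scaling, and to as many as 6069 and 3589 when a fraction was left out, so the shares used below as background hold for this scaling and these 6 arrays. Among the probes well above background on all 6 arrays, 2272 and 860 did not overlap, with median differences of -0.41 and 0.61 log2, and 9 and 24 of them differed by 2 log2 or more. Requiring also a mean difference of at least 1 log2 between fraction 4 and fractions 2 and 3 left 91 probes (0.334%) higher in fractions 1-3, for 65 gene symbols, and 139 probes (0.511%) higher in fractions 4-6, for 110 symbols. Of these, 43 and 66 probes were well above background on all 6 arrays.

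The 12 genes with the largest differences in each direction were named from these probes, and the plot of named genes shows their levels. Of those higher in fractions 4-6, all 12 had passed the detection rule only through that side. They included 4 Hox genes, transcription factors that mark hindbrain and spinal cord. Hoxb5 was -5.92, -5.53 and -6.93 in fractions 1 to 3 and not well above background there, and -0.77, 1.15 and -0.72 in fractions 4 to 6. Hoxc4 was -5.95, -6.94 and -6.09 against -1.43, 0.68 and -0.35. The ventral levels of Hoxb5 and Hoxc4 were at least 18.4-fold and at least 15.4-fold higher, counted from the lowest signal well above background on each upper array. Hoxb4 (-2.23, -0.39 and -1.50 in fractions 4 to 6) and Hoxa5 (-3.04, -1.14 and -3.27) were likewise below background in the upper fractions, with bounds of at least 7.66-fold and at least 3.54-fold. All 4 were highest in fraction 5.

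Calcr, the receptor of calcitonin and amylin, was -5.79, -6.74 and -6.76 in fractions 1 to 3, none of them well above background, and -1.98, -0.65 and -0.89 in fractions 4 to 6. Its ventral level was at least 8.81-fold higher, and it passed the detection rule only through fractions 4-6. It shared the lowest adjusted p of the comparison (0.19 by limma, 0.0031 with array median scaling), a fit to upper levels not above background. The probe that shared this p was Asb4, named here after its values were seen, at -4.01, -3.91 and -4.17 against -1.14, -0.24 and -0.11, and well above background on 2 of the 3 upper arrays. Slc6a4, the serotonin transporter, was -5.62, -5.06 and -6.45 against -0.22, -1.01 and -2.03, at least 9.35-fold higher, and peaked in fraction 4. Gbx2, a homeobox factor of the thalamus and of the border between midbrain and hindbrain, was -4.31, -5.73 and -4.17 against -0.83, -1.25 and -0.30. It was well above background on 1 of the 3 upper arrays and passed the detection rule only through fractions 4-6, so no exact size is given for its difference.

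Lhx8, a LIM-homeobox factor of basal forebrain cholinergic neurons, was -5.45, -6.45 and -3.77 against -1.50, 0.44 and -0.23, and Arhgap36, of a family of GTPase-activating proteins, was -3.51, -3.20 and -1.13 against 0.73, 2.37 and 2.29. In both genes fraction 3 already stood above fractions 1 and 2, and they were well above background on 1 and 2 of the 3 upper arrays. The same held for Pgr15l, an orphan receptor gene, at -4.19 in fraction 3, well above background on 1 upper array, and -2.72, -0.76 and -0.87 in fractions 4 to 6. Slc10a4, a vesicle-associated carrier of cholinergic and monoaminergic neurons, was at least 7.34-fold higher in fractions 4-6, and AI606473 at least 6.23-fold.

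**Figure D2:**
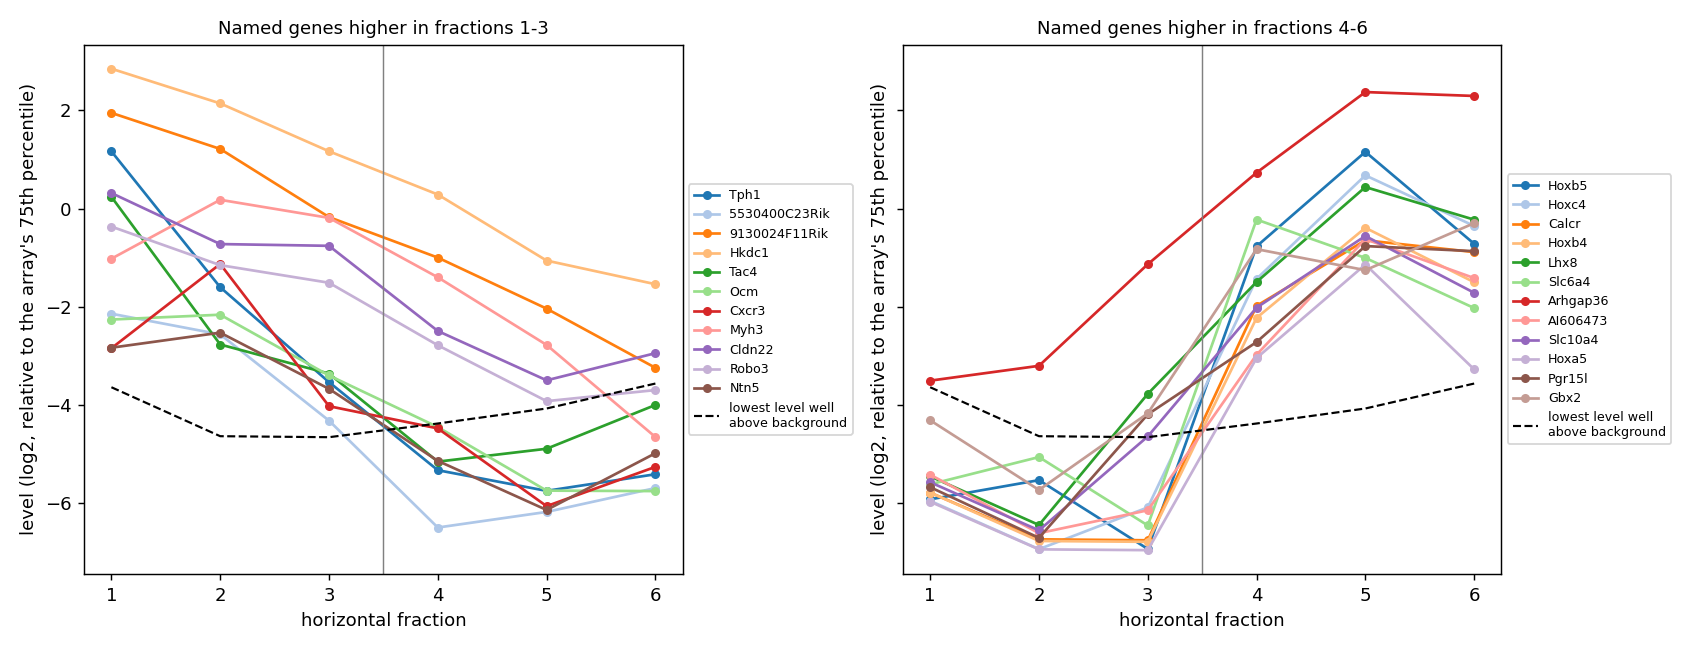
Level of 11 of the 12 named genes higher in fractions 1-3 (left) and of the 12 higher in fractions 4-6 (right), as log2 relative to the 75th percentile of each array, by horizontal fraction; each point is 1 array, the vertical line separates the sides and the dashed line is the detection floor, the level of the dimmest probe that passed the background call there. Most genes on the left decline over several fractions, although Myh3, Cxcr3, Ocm and Ntn5 are highest in fraction 2. Most genes on the right step up between fractions 3 and 4, but all 12 passed the detection rule only through fractions 4-6. Their step is therefore fixed in part by that rule. Hoxb5, at -0.77 in fraction 4, was not well above background in fraction 3.

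Most genes named as higher in fractions 1-3 declined over several fractions. Tph1, the tryptophan hydroxylase of the pineal gland and peripheral tissue, was 1.17, -1.60 and -3.54 in fractions 1 to 3 and between -5.75 and -5.33 below them, where it was not well above background, so that the upper level was at least 6.41-fold higher. Tac4, a tachykinin precursor, was 0.24, -2.77 and -3.36 against -5.15, -4.89 and -4.0, at least 4.12-fold higher in the upper fractions. Both genes were far higher in fraction 1 than in fraction 2, and their bounds lean on fraction 1. Without it the fitted difference, set against levels not above background, went from -4.17 to -2.93 log2 for Tph1. For Tac4 it went from -2.72 to -1.62 log2. Hkdc1, a hexokinase-like gene, was well above background in all 6 fractions and declined through each, at 2.85, 2.14 and 1.17 against 0.29, -1.06 and -1.54, a difference of -2.82 ± 0.60 log2 (SE, adjusted p = 0.665 by limma).

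9130024F11Rik had the same course, at 1.95, 1.21 and -0.17 against -1.0, -2.04 and -3.24. Cldn22, a claudin, was 0.32, -0.72 and -0.76 against -2.49, -3.50 and -2.95, and had the lowest adjusted p of these 12 genes (0.41 by limma, difference -2.59 ± 0.39 log2, SE). Robo3, an axon guidance receptor, was -0.37, -1.15 and -1.51 against -2.78, -3.92 and -3.70. Myh3, an embryonic myosin heavy chain, was highest in fraction 2 (0.18) and lowest in fraction 6 (-4.65). It, 9130024F11Rik and Robo3 were well above background on 2 of the 3 lower arrays. Ocm (oncomodulin, a calcium-binding protein), Cxcr3 (a chemokine receptor), Ntn5 (a netrin) and 5530400C23Rik were well above background in fractions 1-3 and in none of fractions 4-6, with bounds from at least 1.99-fold (Ntn5) to at least 2.63-fold (Ocm). In the other brains 5530400C23Rik was well above background on no array, and Cxcr3 on 2 of 12 coronal and 5 of 10 sagittal arrays.

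These sizes depend on how dim signals are treated. With normexp background correction, which adds 50 to each signal and so narrows differences of dim probes, the difference of Hkdc1 went from -2.82 to -2.43 log2 and that of Cldn22 from -2.59 to -1.67, both detected in all 6 fractions. Fitted differences against levels not above background moved further, from 6.02 to 2.74 for Hoxb5, -4.17 to -1.54 for Tph1, -3.11 to -0.80 for 5530400C23Rik and -2.41 to -0.48 for Ntn5, and none of the 24 changed direction.

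Gene lists of known structures were then read by fraction, 1 probe a gene, and the plot of list differences gives every tested member. Each list is described by its counts beside the 9.32% and 3.87% of all tested probes whose sides did not overlap. Among the 16 genes of the cerebral cortex, 15 were tested, 9 were higher in fractions 1-3 without overlap, and the median difference was -0.97 log2. Mef2c, an activity-dependent transcription factor of excitatory neurons, was 1.71, 1.08 and -0.05 in fractions 1 to 3 and -0.27, -0.52 and -1.04 in fractions 4 to 6. Emx1, a factor of the developing pallium, was 1.56, 0.93 and 0.13 against -0.68, -0.94 and -1.41, with a difference of -1.88 ± 0.39 log2 (SE, adjusted p = 0.65 by limma). Both genes declined at every step from fraction 1 to fraction 6.

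Fezf2, Tbr1, Neurod6, Rtn4r and Lmo4 differed by -1.50, -1.37, -1.48, -1.39 and -0.97 log2 in the same direction. Bcl11b, which is also strong in the striatum, was highest in fractions 3 and 4 (2.02 and 2.10), and Foxp2 was the only gene of the list higher in fractions 4-6 without overlap, and it had passed the detection rule only through that side, fraction 1 not being well above background. In the hippocampal list, of which 9 of 13 genes were tested, Dkk3, Itpka, Pou3f1 and Lct were higher in fractions 1-3 without overlap, with differences of -1.38, -1.28, -0.98 and -1.38 log2, and none was higher in fractions 4-6. Lct peaked in fraction 3 (1.09), as did C1ql2, a synaptic protein of the dentate gyrus (-1.49). Genes of the hippocampus thus did not fall on a single side, and the median difference of the list was -0.05 log2.

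Immediate early genes, which are switched on by neuronal activity, were graded like the cortical genes. Of 12 tested 8 were higher in fractions 1-3 without overlap and 0 in fractions 4-6, with a median of -0.85 log2. Arc was 4.21, 4.51 and 4.12 against 3.51, 2.74 and 2.14, and Egr2 was 0.18, -0.39 and -0.57 against -0.94, -1.47 and -2.19. Genes of red blood cells lay in the same order, with 6 of 6 tested genes higher in fractions 1-3 without overlap and a median of -1.31 log2. Alas2, the heme synthesis enzyme of erythroid cells, was 3.44, 2.84 and 2.32 against 1.92, 1.01 and 1.28. The globin genes of this list are near-identical copies whose probes may share signal. The part of blood in the cortical and early gene differences was not tested.

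The basal ganglia crossed the boundary. Of 15 striatal genes 14 were tested, and fraction 4 stood above both fractions 2 and 3 in all 14. Rgs9, a G protein regulator of medium spiny neurons, was 1.05, 1.33 and 3.87 in fractions 1 to 3 and 4.52, 4.12 and 3.49 in fractions 4 to 6. Another of its 3 probes differed by -0.05 log2, against 1.96 log2 for this one. Adora2a, the adenosine receptor of indirect pathway neurons, was -1.75, -1.50 and 1.09 against 1.63, 1.2 and 0.52. Fraction 3 resembled the lower side in these genes, so the sides overlapped for most of them. Only Tac1, Gpr6 and Rasgrp2 were higher in fractions 4-6 without overlap, and the median difference was 1.25 log2.

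Cholinergic genes were higher in fractions 4-6 with little overlap. Chat, the enzyme that makes acetylcholine, was -1.07, -1.23 and -0.90 against 0.03, 0.70 and -0.11, and Slc5a7, the choline transporter, was -2.14, -3.48 and -2.81 against -0.82, 0.48 and -0.23. Their differences were 1.27 ± 0.26 and 2.62 ± 0.45 log2 (SE, adjusted p = 0.61 and 0.54 by limma). Slc18a3, Ache and Lhx8 were among the others without overlap, and in all 6 of the 7 genes tested of 10 were higher in fractions 4-6, and 2 of the 7 had passed the detection rule only through that side. Of these 7 genes, 6 peaked in fraction 5.

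Of the 13 thalamic and habenular genes tested, 6 were highest in fraction 4, 3 in fraction 1 and the others in fractions 3, 5 or 6. Prkcd, a protein kinase of thalamic relay neurons, was 0.03, 0.73 and 1.58 in fractions 1 to 3 and 3.18, 2.01 and 0.94 in fractions 4 to 6, and Tcf7l2 was highest in fraction 4 too (0.74). Fraction 6 was below fraction 3 in both genes, and their sides overlapped. Ntng1, Slc17a6, Tnnt1, Tac1 and Gbx2 were higher in fractions 4-6 without overlap, 5 of 13 tested, of which Gbx2 had passed the detection rule only through that side, while the habenular receptor subunit Chrnb4 was the only gene higher in fractions 1-3 without overlap (-0.89 log2). The vesicular glutamate transporters took opposite orders. Slc17a7 was 3.60, 3.49 and 3.11 against 2.84, 2.44 and 1.70, and Slc17a6 was 0.45, 1.39 and 1.28 against 2.35, 2.58 and 1.73, differences of -1.07 ± 0.33 and 1.18 ± 0.34 log2 (SE, adjusted p = 0.70 and 0.69 by limma). Among genes of GABA neurons, the synthesis enzymes Gad1 and Gad2 and the vesicular transporter Slc32a1 had differences of -0.09, 0.58 and 0.62 log2, and the sides of all 3 overlapped.

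Genes of serotonin and noradrenaline neurons differed in their detection along the axis. Dbh, which makes noradrenaline, was -2.14, -2.31 and -2.29 in fractions 1 to 3 and 1.15, 1.02 and -0.09 in fractions 4 to 6. It was well above background in all 6 fractions and its difference was 2.94 ± 0.35 log2 (SE, adjusted p = 0.25 by limma). Phox2a, a homeobox factor of noradrenergic neurons, was well above background only in fractions 4-6, where it was at least 2.55-fold higher. Tph2, the brain tryptophan hydroxylase, was -3.18, -3.78 and -5.59 against -1.26, -1.74 and -2.40. Of 12 genes of this list 9 were tested and 7 were higher in fractions 4-6 without overlap, but 5 of the 9 had passed the detection rule only through that side. Of the 4 genes well above background in all 6 fractions, Dbh and Ddc did not overlap, Gata2 overlapped, and Maob overlapped with a difference of -0.28 log2.

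The 250 bases before the start of Dbh, at chr2:27165257-27165506 on the plus strand of GRCm38.p6 (RefSeq), are shown because Dbh differed together with the homeobox gene Phox2a. Capitals mark TAAT, the core letters of homeodomain motifs, searched on both strands (as ATTA on the reverse).
Dbh: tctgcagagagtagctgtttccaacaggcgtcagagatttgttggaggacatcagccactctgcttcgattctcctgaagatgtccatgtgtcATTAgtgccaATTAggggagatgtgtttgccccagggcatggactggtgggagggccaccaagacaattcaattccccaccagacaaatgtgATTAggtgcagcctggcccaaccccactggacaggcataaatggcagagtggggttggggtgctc
The window held 3 matches, all on the reverse strand. Of windows of this length, 54.9% held TAAT at least once and 17.3% held it 3 times or more.

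Of the 10 dopamine genes of the midbrain tested, 6 were highest in fraction 5. Slc6a3, the dopamine transporter, was -2.80, -2.44 and -1.59 against -0.75, 3.82 and 0.15, and Slc18a2, the vesicular monoamine transporter shared by all monoamine neurons, was -2.18, -2.0 and -2.22 against -0.02, 1.19 and 0.22. The spread within the lower side left Slc6a3 at 3.35 ± 1.15 log2 (SE, adjusted p = 0.73 by limma) and Slc18a2 at 2.60 ± 0.33 log2 (adjusted p = 0.33). Th was 3.72 in fraction 3 and 4.17 in fraction 5, and its sides overlapped. In all, 5 of the 10 genes did not overlap, each higher in fractions 4-6, and 1 of them, Lmx1a, had passed the detection rule only through that side.

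Of the 16 Hox genes 9 were not tested. Hoxb1 and Hoxd3 were well above background in no fraction, and Hoxb8 in fraction 5 alone. The 7 tested genes had all passed only through fractions 4-6, so that their lack of overlap is fixed in part by the rule. Hoxa3 and Hoxb2 were each well above background on 1 upper array and Hoxb6 on 2. Of the glycine list, the receptor genes Glra1 and Glra3 were well above background on 2 arrays each, all in fractions 4-6, and were not tested. None of the 5 tested genes of that list was free of overlap.

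**Figure D3:**
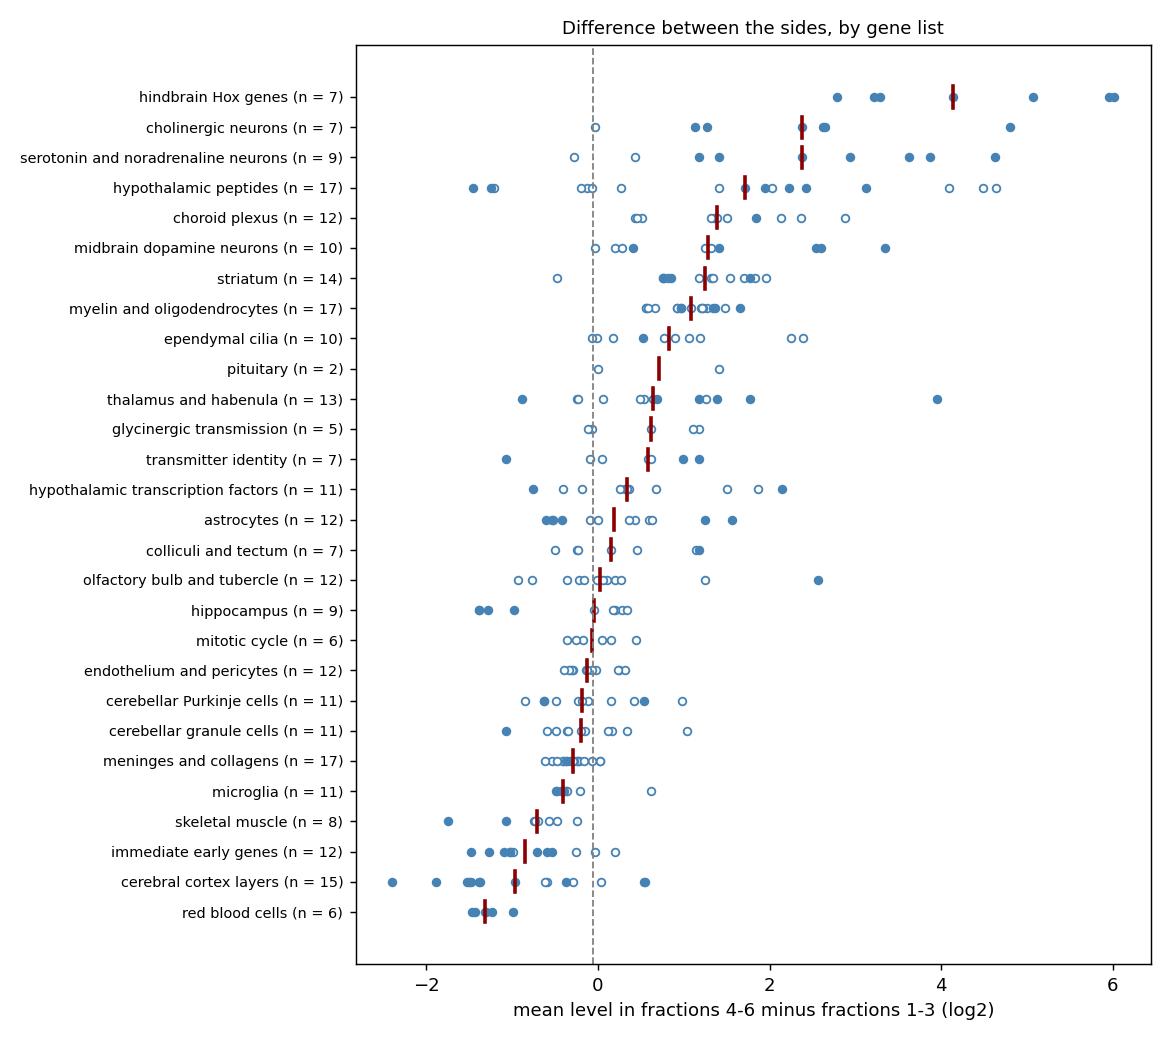
Mean level in fractions 4-6 minus mean level in fractions 1-3 (log2) for each tested gene of 28 lists, with the number tested in brackets; filled points are genes whose sides did not overlap, open points overlapped, the red bar is the list median and the dashed line the median of all tested probes (-0.06). The median is -1.31 for red blood cells, while all 7 Hox genes shown passed the detection rule only through fractions 4-6, so that their differences are set against levels mostly not above background.

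Several structures lay in the middle of the axis, where the comparison of sides averages them away, as the plot of list profiles shows. Gabra6, the GABA receptor subunit of cerebellar granule cells, was -5.47 in fraction 1, where it was not well above background, 3.49, 3.61 and 3.37 in fractions 2, 3 and 4, and 1.83 and -0.46 in fractions 5 and 6. Pcp2, a Purkinje cell transcript, was 2.13, 7.23, 7.32, 7.07, 5.46 and 4.60. Ppp1r17, another Purkinje cell gene, was -5.84 in fraction 1 and between 1.26 and 1.40 in fractions 2 to 4. These genes were lowest in fraction 1, and of the 11 granule and 11 Purkinje genes tested only 1 and 2 did not overlap between the sides. The 2 Purkinje genes were Gng13, higher in fractions 1-3, and Foxp2, higher in fractions 4-6. Foxp2, also in the cortical list, had passed the detection rule only through fractions 4-6.

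Of the 12 olfactory genes, 9 were highest in fraction 3. Omp, the olfactory marker protein of sensory neurons, was -1.0, 0.55 and 3.14 in fractions 1 to 3 and 2.38, -0.85 and 0.09 in fractions 4 to 6. Tbx21, of mitral and tufted cells, was -0.78 in fraction 3 and -4.58 in fraction 1. Of 12 olfactory genes tested only Calca, which encodes CGRP and is also made in brainstem motor neurons, did not overlap (2.56 log2 higher in fractions 4-6). The median difference of the list was 0.02 log2, but -0.13 with array median scaling, -0.10 with normexp correction, -0.67 without fraction 1 and -0.40 without fraction 4. The tectal list had a median of 0.15 log2, but -0.00417 with array median scaling and -0.23 over genes well above background on all 6 arrays. Only Gata3 of its 7 tested genes did not overlap, and it had passed the detection rule only through fractions 4-6. The 6 tested genes of the mitotic cycle all overlapped, with 4 of them highest in fraction 3, such as Mki67 at -0.92.

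**Figure D4:**
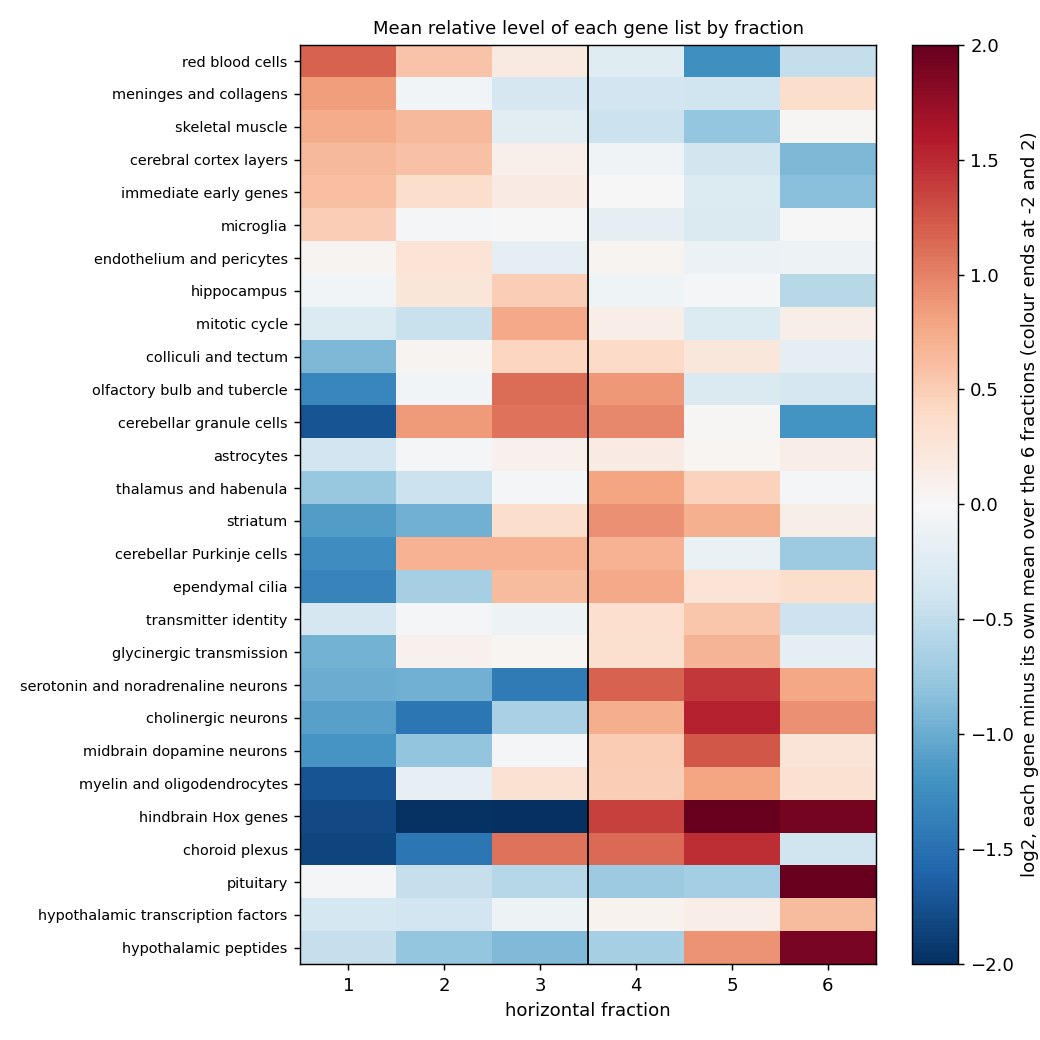
Mean relative level of 28 gene lists in the 6 horizontal fractions, as log2 of each tested gene minus its own mean over the fractions, averaged over the list; rows are ordered by the fraction of their highest value, the vertical line separates the sides and the colour ends at -2 and 2, which the Hox and pituitary lists exceed. Granule cell genes run from -1.72 in fraction 1 to 1.09 in fraction 3, and choroid plexus genes from -1.83 in fraction 1 to 1.47 in fraction 5.

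Choroid plexus and ependyma line the ventricles. Ttr, the transthyretin of choroid plexus, was 1.94, 3.28 and 7.40 in fractions 1 to 3 and 7.22, 7.55 and 4.96 in fractions 4 to 6, and Folr1 was -0.66, -0.76 and 2.51 against 2.39, 2.56 and 0.64. Fraction 3 was close to fractions 4 and 5 in both genes, and only Prlr of 12 tested genes did not overlap, although the median difference was 1.39 log2, with 2 of the 12 having passed the detection rule only through fractions 4-6. Foxj1, the master factor of motile cilia, was lowest in fraction 1 (-2.36) and highest in fraction 4 (0.16). Only Tekt4 of 10 tested ciliary genes did not overlap, at 0.52 log2.

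Myelin genes set fraction 1 apart. Mobp was 3.96 in fraction 1 and between 6.43 and 7.29 in the other 5 fractions, and Mbp was 3.23 against a range of 5.83 to 7.27. All 17 tested myelin and oligodendrocyte genes had a higher mean in fractions 4-6, by 0.56 to 1.65 log2 at the probe chosen for each, and 14 peaked in fraction 5, but only 4 did not overlap, among them Gjb1, Mal and Ugt8a. The 3 probes of Mbp, each well above background on some arrays, disagreed, with differences from -0.55 to 1.49 log2. Ermn was an exception in its course, at 4.61 in fraction 1 and 4.79 in fraction 6 with 2.36 in fraction 3.

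Among astrocyte genes, Agt, the angiotensinogen gene, was -0.10, 1.86 and 2.52 against 3.09, 3.00 and 2.86, while the glutamate transporters Slc1a2 and Slc1a3 were higher in fractions 1-3 (differences of -0.61 and -0.53 log2). Members of the list therefore differed in opposite directions, with 4 of 12 tested higher in fractions 1-3 and 2 higher in fractions 4-6 without overlap. Of 11 microglial genes tested 6 were higher in fractions 1-3 without overlap, with differences of -0.48 to -0.39 log2, and 9 peaked in fraction 1. None of 12 endothelial and pericyte genes was free of overlap, with differences from -0.39 to 0.32 log2.

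Genes of the meninges, which cover the outer surface, were highest at the outer fractions. Col1a2 was 5.07 in fraction 1, 3.99 in fraction 6 and between 3.64 and 3.91 in the others, and Ptgds was 9.99 and 9.65 against 8.60 to 9.14. In 15 of 17 genes fraction 1 was the highest, and 1 gene did not overlap between the sides. Of 8 tested genes of skeletal muscle, a tissue outside the brain, Acta1 was higher in fractions 1-3 without overlap, with a difference of -1.07 log2. Myh2 did not overlap either, but passed the detection rule only through that side and was well above background on 2 of the 3 lower arrays, whereas Ckm and Mylpf were well above background in no fraction. Their part in the levels of Myh3 was not tested.

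The same probes were then located in the coronal and sagittal brains, which had no part in choosing them. Of the 139 probes higher in fractions 4-6 with the check in fractions 2 to 4, 77.0% were highest in sagittal fractions 4 to 6, the middle of that series, against 23.9% of all tested probes. Among the 1053 probes without overlap it was 62.5% of the 1051 with a sagittal level. For the checked probes higher in fractions 1-3 it was 6.74% of the 89 with a sagittal level. All shares count only probes with a level in that series. Of the 91 and 139 checked probes higher in fractions 1-3 and 4-6, 43 and 66 were well above background on all 6 horizontal arrays. The others had passed the detection rule only through their higher side. Among the 27227 tested probes 24827 were well above background on all 6 arrays, so the sets compared differ in detection as well. In the coronal series 62.9% of the 89 checked dorsal probes with a level there were highest in fractions 9 to 11, against 38.4% of all tested probes and 7.25% of the ventral probes. These shares describe 2 further brains, and probes are not independent of each other, so no test was made. Sagittal fraction 1 was the array with the lowest 75th percentile (135 signal units). Of the dorsal probes without overlap, 59.5% of the 2533 with a sagittal level were highest on it, against 32.9% of all tested probes.

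Among the 12 named ventral genes 10 were highest in sagittal fractions 4 to 6, and AI606473 and Hoxa5 in fractions 3 and 7. All 12 had passed the detection rule only through horizontal fractions 4-6, so this count describes genes picked as high there. Along the coronal axis they divided. The 4 Hox genes were highest in fraction 1, with Hoxb5 at 3.82 and Hoxc4 at 2.76. Slc6a4 was highest in fraction 4, Gbx2 in fraction 7, and Lhx8, Calcr, Pgr15l and AI606473 in fraction 8. Other genes had no clear peak, with Slc10a4 at -0.60 in fraction 4 and -0.61 in fraction 8, and Arhgap36 between 1.82 and 1.99 in fractions 4, 6, 7 and 8. Of the dorsal genes, Tph1 and Tac4 were both highest in coronal fraction 5, at 0.33 and -0.93, and were well above background on 5 and 4 of the 12 coronal arrays.

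**Figure D5:**
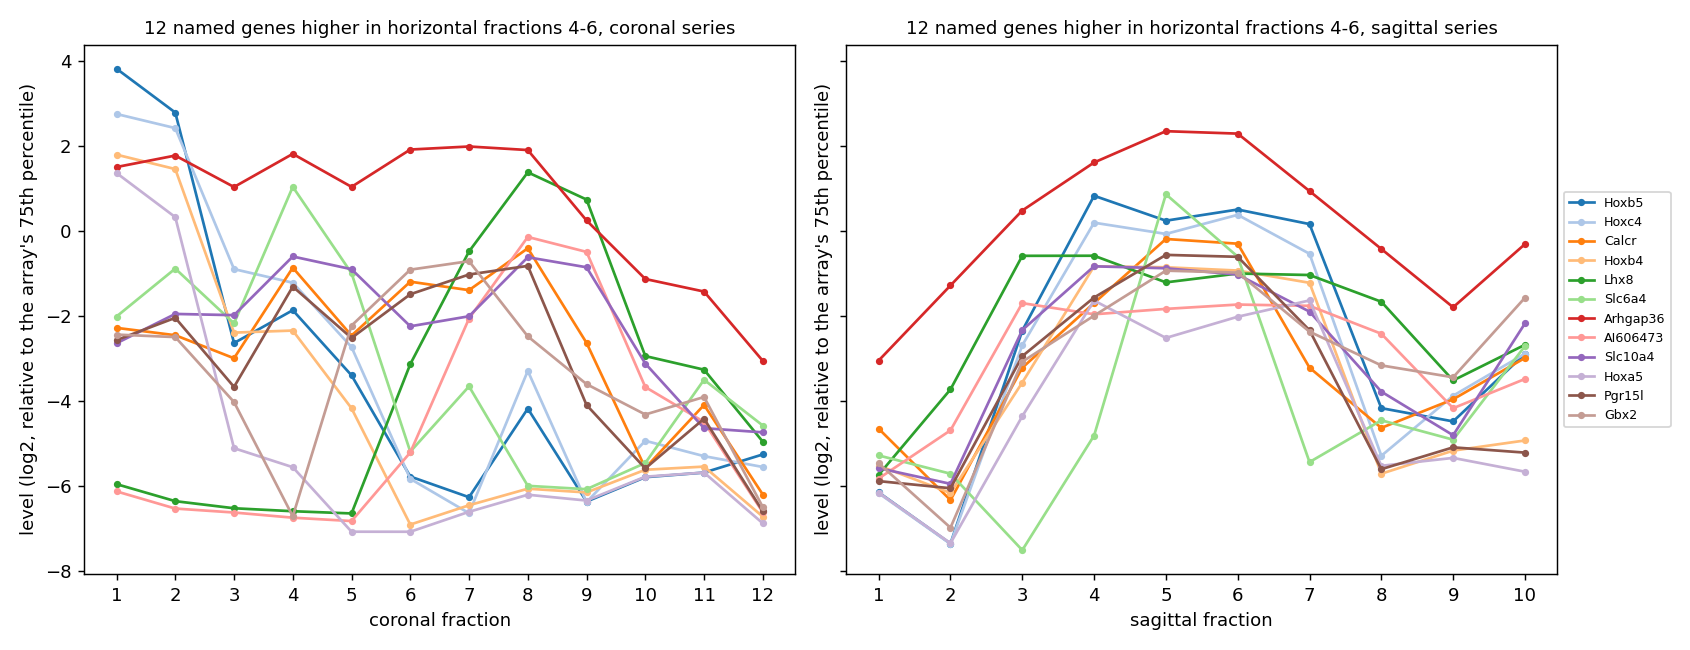
Level of the 12 named genes higher in horizontal fractions 4-6 in the 12 coronal (left) and 10 sagittal (right) fractions, as log2 relative to the 75th percentile of each array; each point is 1 array of another mouse. Most lines are highest in sagittal fractions 4 to 6, while in the coronal series Hoxb5 reaches 3.82 in fraction 1 and Lhx8 1.39 in fraction 8.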

How the data were processed

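RNA of each fraction had been labelled with Cy3 and hybridised to a 1-colour Agilent array. The authors deposited intensity values that Agilent Feature Extraction had read from the scans and corrected for background. The deposited log2 values of the authors, used as an alternative, hold the same signal scaled to each array's 75th percentile. Here, outlier spots were left out, spots of a probe were averaged, and log2 minus the 75th percentile was taken. A probe was well above background where at least 0.5 of its spots carried the flag. The 273 probes that had lost a spot were not tested. RefSeq symbols (GRCm38.p6) were found for 27235 probes (48.9%), and 22 of the 24 named genes had a sequence in the table of starts. All 6 arrays lay on 1 slide. The sides were compared with limma 3.58.1 (R 4.3.3), two-sided, with Benjamini-Hochberg adjustment and a threshold of 0.05, after a test on simulated data. Named genes are, per direction, the 12 symbols with the largest difference among probes without overlap, well above background on the higher side and at least 1 log2 apart in fractions 2 and 3 against 4. As no probe passed the adjusted p, this condition was dropped. Of the genes higher in fractions 1-3, 1 is not reported here. The probe of a listed gene is that with the highest mean over the 28 arrays. Members, lists and motifs were chosen with earlier results of these data known. Precision is limited by having a lone array at every position.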

Additional observations from a re-analysis of the deposited data

How the results depend on the processing

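No paired analysis was possible because the fractions compared (1 to 3 and 4 to 6) share no number, and a number marks a position. Of 16 alternatives, 3 gave a count other than 0 of probes passing the adjusted threshold in limma. It was 9 with array median scaling (1 higher in fractions 1-3 and 8 higher in 4-6, with Calcr, Hoxc4, Hoxb4, Hoxb5, Phox2a, Asb4, Gbx2 and AI606473), 2 with quantile normalization (Calcr and Phox2a), and 100 when the fraction number was fitted as a line (69 and 31), which asks for a trend and not for 2 sides. For the scalings the cause was not tested. The 8 genes named for array median scaling had all passed the detection rule only through fractions 4-6. Over probes well above background on all 6 arrays, the lowest adjusted p in limma was 0.82, against 0.19 over all tested probes. Leaving out each fraction in turn gave 0 to 0 calls. The counts without overlap fell to 1258 and 339 with array median scaling, and were 3016 to 6069 and 1312 to 3589 when a fraction was left out, where fewer levels are compared. Leaving out fraction 1, 3, 4 or 6 moved them by over 1.5 times, to 4203, 4311, 4664 and 6069 for fractions 1-3 and 2056, 2128, 2015 and 3589 for fractions 4-6. The 1067 and 649 probes with an unadjusted p under 0.05 became 477 and 233 with array median scaling, 2179 and 1803 with the level of dim probes as a term, and 2387 and 1184 when a line over fraction numbers was fitted. They were 448 to 2048 and 368 to 938 when a fraction was left out, with moves of over 1.5 times without fraction 1 (693 and 504), 2 (448 and 385), 5 (487 and 368) and 6 (2048 and 878). The lists of 10 structures changed the sign of their median in 27 of 447 list alternatives. The named genes changed direction in 0 of 362. These genes were picked for sides without overlap and for a difference between fractions 2 and 3 and fraction 4. Fits that left out a fraction, or used fractions 2 to 4 alone, could therefore not reverse them. The Oxt difference lay between 3.33 and 6.66 log2 in fits of both sides, the highest without fraction 4. Probes near background limit the folds of dim genes.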

Other observations

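Tph1 and Tac4, the named genes with the steepest step between fractions 1 and 2, were set beside genes of the pineal gland chosen after these values were seen. Sag, which encodes arrestin of the retina and the pineal gland, was -0.42, -1.68 and -2.30 in fractions 1 to 3 and -3.12, -2.96 and -2.35 in fractions 4 to 6. Aanat, the melatonin-forming enzyme, lay between -0.11 and 0.53 in all 6 fractions, and Crx was well above background in none.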
